A study of Mus musculus with 11 samples.

Results

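Intergenic ATAC-seq peaks that the authors' table places more than 100 kb from the start site of their assigned gene were examined in naive CD4 T cells sorted by tonic T cell receptor signal. The rule took each peak annotated as intergenic with an absolute distance above 100 kb, and 1606 of 45508 peaks met it. ATAC-seq reads come from sites where the enzyme Tn5 can reach and cut the DNA, so the reads at a peak measure how accessible it is. The 3 mice were untreated and all carried Tg(Nr4a1-EGFP)GY139Gsat, a transgene in which regulatory DNA of Nr4a1 (Nur77) drives green fluorescent protein, together with Foxp3tm1Flv, a red reporter of Foxp3, on a C57/BL6 background. Their ages were not given in the sources used here. CD4+ cells of spleen and lymph nodes with low CD44 and no red reporter signal were divided into 4 populations by sorting. Population A was reporter low and Ly6C+ (n = 2, mice 1 and 3), B was reporter intermediate and Ly6C+ (n = 3), C was reporter intermediate and Ly6C- (n = 3), and D was reporter high and Ly6C- (n = 3). The green signal comes from the transgene and not from the Nr4a1 gene itself, and a reporter step from C to D and one from A to B are each made within 1 Ly6C class.

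Distal intergenic peaks are where many enhancers lie, DNA elements that bind transcription factors and act on promoters over long distances by chromatin looping. In T cells such elements are spread over gene deserts around regulators such as Bcl11b, Gata3, Id2 and Myc. Peaks of this kind also include binding sites of CTCF, the protein that anchors loops, and start sites of noncoding RNAs. The nearest start site need not belong to the gene an element acts on, so gene names below are addresses and not targets.

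The 1606 peaks lay on 20 chromosomes and were assigned to 531 genes, at distances from 100.1 to 1472 kb with a median of 164 kb. Their median mean level was 6.86 rppm (the table's unit, reads scaled to a common total per library), with quartiles of 4.46 and 13.5, against 9.90 rppm over all 45508 peaks. Median width was 733.5 bases against 760. They held 1.91% to 2.30% of the reads in listed peaks in each library. Each listed peak reached 1 rppm in at least 3 libraries, which a peak open only in the 2 libraries of A could not do, and 6 of the 1606 passed only through the 3 libraries of D, all 6 called higher in D than in A, where a peak counts as called, and as having risen or fallen, at a limma p adjusted over all peaks below 0.05. Of all 45508 peaks 8.7% were called higher and 3.74% lower in that comparison. These 6 had to be higher in D than in A, B and C to be listed, so their calls are no result, and those described below are given with no test.

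Against the RefSeq annotation (GRCm38.p6, the assembly of the mm10 build), the description as gene-free did not hold for every peak. Of the 1606 peaks, 528 overlapped a RefSeq gene, among them 292 with a long noncoding RNA gene, 53 with a protein-coding gene and 169 inside an antigen receptor locus, and 1078 overlapped none. Measured to the nearest protein-coding gene body, 466 peaks lay within 100 kb and 1140 beyond it, with a median of 149 kb. The peaks are therefore called distal here by the authors' start sites only.

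Of the distal peaks, 41 overlapped the start window of a RefSeq gene (250 bases before to 50 after the start), and these are the distal peaks for which sequence was at hand. Of the 41, 5 rose and 1 fell between A and D (14.6%), against the shares of all peaks just given. The windows of the 6 called peaks, and for contrast 2 windows of strong peaks with log2 changes near 0, are shown 5′ to 3′ on the strand of the RNA, cut to the part inside the peak where the peak ends within the window. Capitals mark matches to the searched letters on either strand, and a window without capitals holds none of them. In order these are Gm33933 (mm10 chr14:6605031-6605330, minus strand), Gm46567 (chr16:29813479-29813599, plus), Gm37004 (chr2:78972568-78972638, plus), Gm31814 (chr16:24216716-24216760, minus), Gm30863 (chr13:37532909-37533199, minus), all higher in D, Gm15323 (chr13:112000759-112001058, plus), lower in D, and the near-0 pair Gm41331 (chr15:60141576-60141875, plus) and Gm26901 (chr1:7398047-7398346, minus).
Gm33933: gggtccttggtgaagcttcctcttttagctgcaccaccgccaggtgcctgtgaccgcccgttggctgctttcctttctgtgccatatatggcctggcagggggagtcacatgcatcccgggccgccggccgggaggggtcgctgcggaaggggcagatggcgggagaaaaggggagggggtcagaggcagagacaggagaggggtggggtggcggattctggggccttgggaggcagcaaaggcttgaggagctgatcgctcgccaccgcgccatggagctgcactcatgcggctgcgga
Gm46567: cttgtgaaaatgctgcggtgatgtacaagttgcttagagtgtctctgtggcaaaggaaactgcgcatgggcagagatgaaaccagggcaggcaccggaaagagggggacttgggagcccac
Gm37004: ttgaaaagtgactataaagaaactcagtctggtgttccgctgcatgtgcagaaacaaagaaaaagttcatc
Gm31814: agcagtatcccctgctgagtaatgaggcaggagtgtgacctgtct
Gm30863: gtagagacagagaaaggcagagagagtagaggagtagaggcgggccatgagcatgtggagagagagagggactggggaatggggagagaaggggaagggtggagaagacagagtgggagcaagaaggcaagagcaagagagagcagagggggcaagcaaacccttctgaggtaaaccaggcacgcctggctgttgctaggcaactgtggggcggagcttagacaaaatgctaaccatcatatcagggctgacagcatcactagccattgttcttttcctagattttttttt
Gm15323: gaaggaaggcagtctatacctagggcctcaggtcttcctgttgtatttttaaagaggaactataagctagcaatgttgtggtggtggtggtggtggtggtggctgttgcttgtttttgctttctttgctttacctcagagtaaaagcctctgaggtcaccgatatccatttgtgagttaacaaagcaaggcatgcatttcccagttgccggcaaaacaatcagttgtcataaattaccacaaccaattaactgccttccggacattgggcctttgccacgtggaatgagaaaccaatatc
Gm41331: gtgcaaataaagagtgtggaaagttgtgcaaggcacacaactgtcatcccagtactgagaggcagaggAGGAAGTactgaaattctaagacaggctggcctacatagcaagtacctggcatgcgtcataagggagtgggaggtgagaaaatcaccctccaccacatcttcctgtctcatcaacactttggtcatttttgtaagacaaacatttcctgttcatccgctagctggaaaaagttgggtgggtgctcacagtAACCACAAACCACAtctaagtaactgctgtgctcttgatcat
Gm26901: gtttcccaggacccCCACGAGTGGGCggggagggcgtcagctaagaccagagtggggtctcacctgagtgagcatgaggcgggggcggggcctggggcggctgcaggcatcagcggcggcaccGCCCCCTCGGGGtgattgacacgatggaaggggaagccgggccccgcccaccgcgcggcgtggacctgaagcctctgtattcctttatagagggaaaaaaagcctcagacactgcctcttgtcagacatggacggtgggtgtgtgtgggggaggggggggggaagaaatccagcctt
The sequences are from RefSeq. The capitals in Gm41331 are 1 ETS match (AGGAAGT) and 2 neighbouring RUNX matches (TGTGGTT, read on the other strand), and those in Gm26901 are 2 CTCF matches.

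The peak over the Gm33933 start measured 2.17 and 2.52 rppm in A, 3.45, 3.09 and 3.71 in B, 4.91, 4.94 and 4.96 in C and 11.6, 9.60 and 12.4 in D, in the order of the mice (log2 change 1.86, SE 0.16, adjusted p = 5.47e-06 by limma). All 3 libraries of D were above all others. It lies 152 kb from Gm3636, and Gm3636 belongs to a family of near-identical copies, so how reads that map to several places were treated matters here and was not given in the sources used here. The peak over the Gm46567 start, in the desert between Opa1, a mitochondrial fusion protein, and Hes1, a Notch target gene, measured 1.09 and 1.51 rppm in A and 8.09, 10.3 and 12.5 in D (log2 change 2.29, SE 0.24, adjusted p = 2.2e-05 by limma). At Gm37004, between the ubiquitin-conjugating enzyme Ube2e3 and the integrin Itga4, the values were 1.20 and 1.11 rppm in A and 5.39, 5.82 and 5.97 in D (log2 change 1.64, SE 0.19, adjusted p = 5.02e-05 by limma). The Gm31814 peak lies between Bcl6, the follicular helper factor, and Lpp, and rose less (log2 change 1.11, SE 0.19, adjusted p = 0.00133 by limma). The Gm30863 peak was closest to the threshold (log2 change 0.53, SE 0.16, adjusted p = 0.0469 by limma), and its call was lost in 10 of the 11 fits that each left out 1 library, at adjusted p up to 0.435. The exception was the fit without B replicate 1. The peak over Gm15323, between the kinase Map3k1 and Ankrd55, was strong in every library and fell, with 83.9 and 80.1 rppm in A, 68.2, 73.1 and 77.9 in B, 54.8, 54.6 and 60.9 in C and 49.7, 51.8 and 55.7 in D (log2 change -0.64, SE 0.10, adjusted p = 0.000786 by limma).

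Among the windows that lay whole inside a distal peak, 5 of 32 held the CTCF letters (15.6%) and 5 of 32 the RUNX letters (15.6%), against 8.61% and 5.27% of 32817 start windows of the same length. ETS letters were in 1 of the 32 (3.12%, against 9.35%), and so were those of AP-1 (TGANTCA, against 7.81%) and TCF1/LEF1 (CTTTGAA, against 5.14%). E protein letters (CAGCTG) were in 4 (12.5%, against 16.3%). The letters of NR4A (AAAGGTCA, 1.51% of all windows), NF-kB (1.47%), KLF (CCACACCC, 3.56%), IRF (3.43%) and CRE (TGACGTCA, 1.79%) were in none of the 32. Both strands were searched and no pattern contains another. Windows can share sequence where 1 gene has several starts, so these shares are descriptions.

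D against A sets the strongest tonic signal against the weakest, and Ly6C- against Ly6C+ cells, so those properties cannot be told apart in it. Of the 1606 distal peaks, 282 were called higher in D and 86 lower by limma, together 22.9%. The shares over all 45508 peaks were 8.7% and 3.74%. The higher count of distal peaks, and the shares by size, level and distance below, include peaks listed only through D, whose calls are no result. A peak open only in A could not be listed. The called share was 15.1% of the 13094 intergenic peaks up to 100 kb, 14.5% of the 18732 intron peaks and 3.59% of the 7270 promoter peaks. Among the distal peaks 166 rose and 24 fell by at least 2-fold on the log2(rppm + 1) scale (10.3% and 1.49%), against 4.46% and 0.6% of all peaks. The median log2 change was 1.16 among those called higher and -0.79 among those called lower, against 1.01 and -0.71 over all peaks. In sorted cells, more cells with an open site and a site more open in each cell cannot be told apart. The count of 368 called peaks was 232 without A replicate 1, 205 without A replicate 3 and 88 without mouse 3, and each of these 3 fits leaves A with 1 library, which is assumed to vary like the others. It was 214 after all libraries were thinned to equal reads. The lower calls moved more than the higher ones: the 86 became 27 without A replicate 1, 39 without A replicate 3, 7 without mouse 3, 31 after thinning and 44 when B and C were left out of the model, where the 282 became 205, 166, 81, 183 and 226. With the mouse as a block there were 382 higher and 142 lower, together 524, against 21.2% of all peaks.

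**Figure D1:**
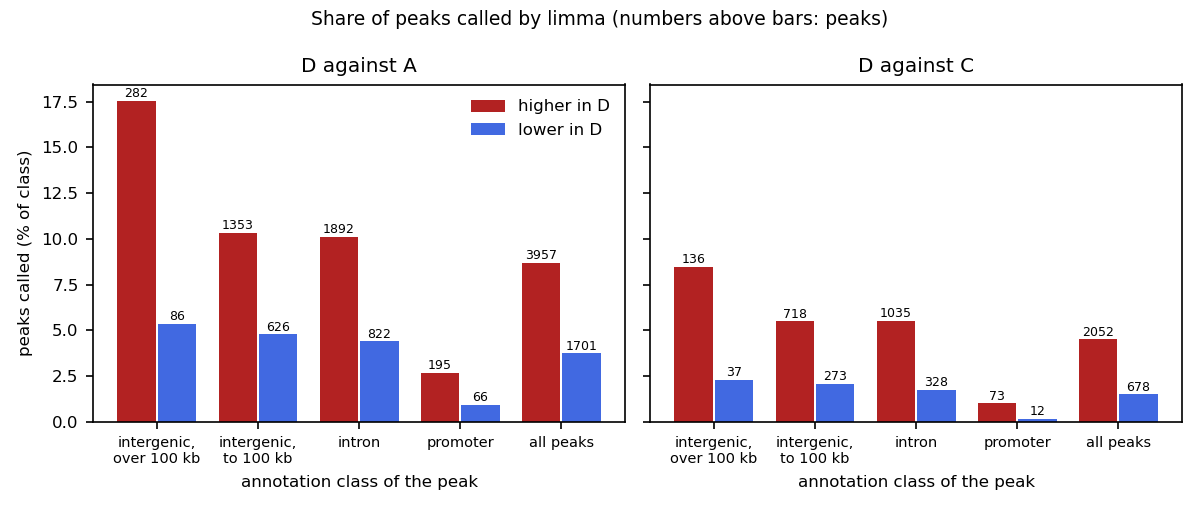
Share of peaks called by limma in each annotation class (vertical axis, % of the class) for D against A (left) and D against C (right), red for higher in D and blue for lower, with the number of peaks above each bar. Distal intergenic peaks stand at 282 higher and 86 lower of 1606 in D against A, with the peaks listed only through D counted among the higher.

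Level and distance both moved with the share called. Among distal peaks with a mean under 5 rppm 33.9% were called in D against A, against 21.5% of all peaks of that level. From 5 to 10 rppm the shares were 19.6% and 12.9%, from 10 to 20 rppm 18.3% and 13.1%, and from 20 rppm 12.9% and 4.91%, so the distal share was the larger in each of the 4 classes of level. All peaks include promoters, which are mostly strong and seldom called. By distance, the share among intergenic peaks was 11.5% from 1 to 10 kb, 15.3% from 10 to 50 kb, 21.2% from 50 to 100 kb, 21.1% from 100 to 150 kb, 29.2% from 150 to 200 kb and 27.7% from 200 to 300 kb. Beyond that it was 16.4% of 207 peaks from 300 to 500 kb and 14.0% of the 100 farthest. Of those 100, 4 were higher and 10 lower, while in each nearer class higher peaks outnumbered lower ones. Peaks of a class often share a gene desert, so they are not independent.

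**Figure D2:**
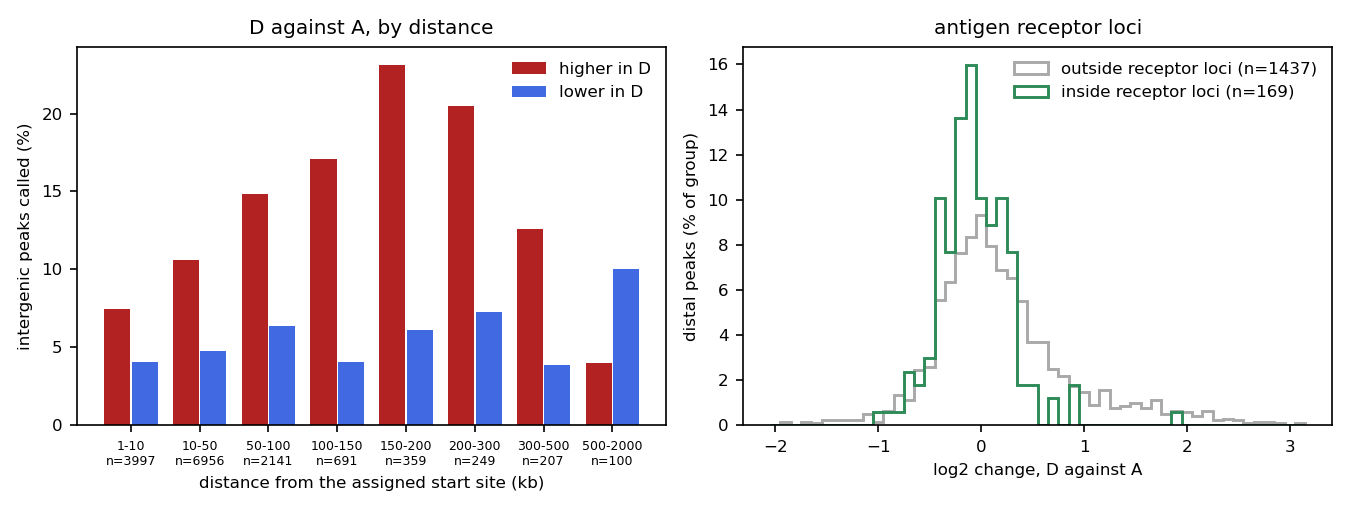
Left: share of intergenic peaks called higher (red) or lower (blue) in D against A (vertical axis, %) by distance from the assigned start site (horizontal axis, kb), with the number of peaks under each class. Right: distribution of the log2 change in D against A (horizontal axis) as a share of each group (vertical axis, %), for the 169 distal peaks inside antigen receptor loci (green) and the 1437 outside (grey); the grey line extends further to the right.

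The antigen receptor loci hold the V, D and J segments that developing lymphocytes join, and the joining can remove the DNA between them. Of the 169 distal peaks there, 100 lay in Tcra, 54 in Igh, 13 in Tcrb and 2 in Tcrg, and 66 of the 100 and 39 of the 54 overlapped a V segment. In D against A, 7 of the 169 were called (4.14%), against 361 of 1437 outside (25.1%). Tcra had 2 higher and 0 lower, Igh 1 higher and 3 lower, Tcrb 1 higher and 0 lower, and Tcrg none, with limma. Median log2 change was -0.09 inside and 0.08 outside. Summed over its 100 peaks, Tcra stood at 895.6 and 753.9 rppm in A. The libraries of B lay from 849 to 918.7, those of C from 807.8 to 882.5 and those of D from 762.2 to 858.2. Igh, the heavy chain locus of B cells, stood at 396.9 and 440.9 in A and 319.1 to 477.4 in D, and groups overlapped at both loci. The 13 Tcrb peaks summed to 80.7 and 70.17 rppm in A and to 58.03 to 65.07 in D, with B from 73.27 to 85.95 and C from 63.35 to 85.36. The 2 Tcrg peaks summed to 17.08 and 13.69 rppm in A and to 10.76 to 13.24 in D, with B from 14.65 to 18.71 and C from 15.43 to 21.78. At Tcrb and Tcrg every D library was below every A library, and these sums were not tested. Many V segments are near copies of each other, so values there depend on how shared reads were placed.

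The largest Tcra change was at a peak assigned to Dad1 (chr14:53736280-53736763, 517 kb), with 1.74 and 0.403 rppm in A, 1.78, 1.15 and 0.758 in B, 3.92, 1.44 and 1.67 in C and 9.63, 6.54 and 3.83 in D (log2 change 1.89, SE 0.38, adjusted p = 0.00380 by limma). Its D libraries were all above the A libraries but ranged widely, and without A replicate 3 the call was lost (limma adjusted p = 0.0938). In the largest group of neighbouring Igh peaks the smallest p was at a peak assigned to Mir7094-2 (chr12:114981527-114982334), with 17.7 and 15.8 rppm in A and 8.86, 7.27 and 8.14 in D (log2 change -0.97, SE 0.16, adjusted p = 0.000936 by limma). After thinning to equal reads that call was lost (limma adjusted p = 0.0705). Of the B cell markers, Ms4a1, Pax5, Blk, Fcer2a and Spib had no listed peak, and others did. The 32 peaks of that list summed to 416.5 and 421.9 rppm in A and 423 to 469 in D. Of the 32, 7 were called higher and 0 lower in D against A by limma, against 8.7% and 3.74% of all peaks. The part of other cells in the Igh values was not tested.

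Rises in D were named by a rule that took 1 called peak per gene with a proper symbol, whose mean reached 5 rppm in the population where it was higher, with no overlap between D and A. The 8 largest of these rises ran from 2.23 to 3.09 on the log2 scale, while 10 other called distal peaks outside the rule also rose by more than the smallest of the 8. The 8 lay between 110.1 and 206.1 kb from their assigned start. In each, all D libraries were above all A libraries, as the rule for naming required, so that separation is no further finding. The largest was between Disc1 and Sipa1l2, which encodes a relative of the GTPase regulator SIPA1 (chr8:125343609-125344522, 149 kb). It measured 1.09 and 1.21 rppm in A, 1.23, 1.49 and 1.24 in B, 4.71, 3.19 and 2.44 in C and 23.5, 14.5 and 15.0 in D (log2 change 3.09, SE 0.24, adjusted p = 2.17e-06 by limma). A and B lay close together, C was slightly above them and D stood far above all.

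A peak between Eef2kmt, which methylates a translation elongation factor, and Rbfox1 (chr16:5368689-5369312) was near 0 in A, with 0.544 and 0.101 rppm in A, 0.891, 0.229 and 0.319 in B, 1.57, 0.720 and 1.30 in C and 6.55, 5.82 and 7.71 in D (log2 change 2.55, SE 0.24, adjusted p = 9.66e-06 by limma). The peak 124 kb from Gadd45g, a stress-induced activator of stress kinase signalling (chr13:51969783-51970592), gave 1.09 and 0.403 rppm in A, 1.89, 0.687 and 1.36 in B, 1.37, 1.34 and 2.04 in C and 8.09, 9.74 and 9.06 in D (log2 change 2.54, SE 0.24, adjusted p = 1.07e-05 by limma). At both, the libraries of A, B and C stood at or near 2 rppm at most and D was apart.

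Between Smim20 and Rbpj, the nuclear effector of Notch signalling (chr5:53402145-53403070), the values were 0.109 and 0.101 rppm in A, 0.334, 0.687 and 0.200 in B, 2.35, 1.44 and 1.39 in C and 6.55, 4.65 and 4.94 in D (log2 change 2.52, SE 0.21, adjusted p = 4.29e-06 by limma). Here C lay between B and D without overlap. Between Prl5a1 and Sox4, a transcription factor of lymphocyte development (chr13:28252219-28252866), they were 0.218 and 0.302 rppm in A, 0.334, 0.458 and 0.359 in B, 0.392, 0.720 and 0.823 in C and 8.86, 4.36 and 4.88 in D (log2 change 2.43, SE 0.23). Every library of A, B and C was under 1 rppm at that peak, so it was listed only through D.

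The remaining 3 of the 8 were open in A to some degree. The peak between Fam76b and Sesn3, a sestrin that restrains mTORC1 (chr9:14010060-14010878), gave 1.85 and 2.11 rppm in A, 4.01, 4.12 and 2.91 in B, 4.51, 5.35 and 4.94 in C and 15.8, 13.7 and 14.8 in D (log2 change 2.40, SE 0.17, adjusted p = 1.51e-06 by limma). The Cwc27 peak, named for a splicing factor (chr13:104610405-104611216), gave 3.92 and 2.21 rppm in A, 4.57, 6.07 and 4.67 in B, 6.08, 7.51 and 6.33 in C and 15.0, 21.4 and 19.2 in D (log2 change 2.28, SE 0.21, adjusted p = 8.27e-06 by limma). Between Map3k7, the kinase TAK1, and Bach2, a repressor that keeps T cells naive (chr4:32126483-32127297), the values were 1.96 and 1.21 rppm in A, 2.23, 1.83 and 1.60 in B, 3.34, 3.81 and 3.35 in C and 13.9, 9.74 and 9.90 in D (log2 change 2.23, SE 0.20, adjusted p = 6.36e-06 by limma). At all 3 the fitted log2 step from C to D was larger than those from A to B and from B to C.

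**Figure D3:**
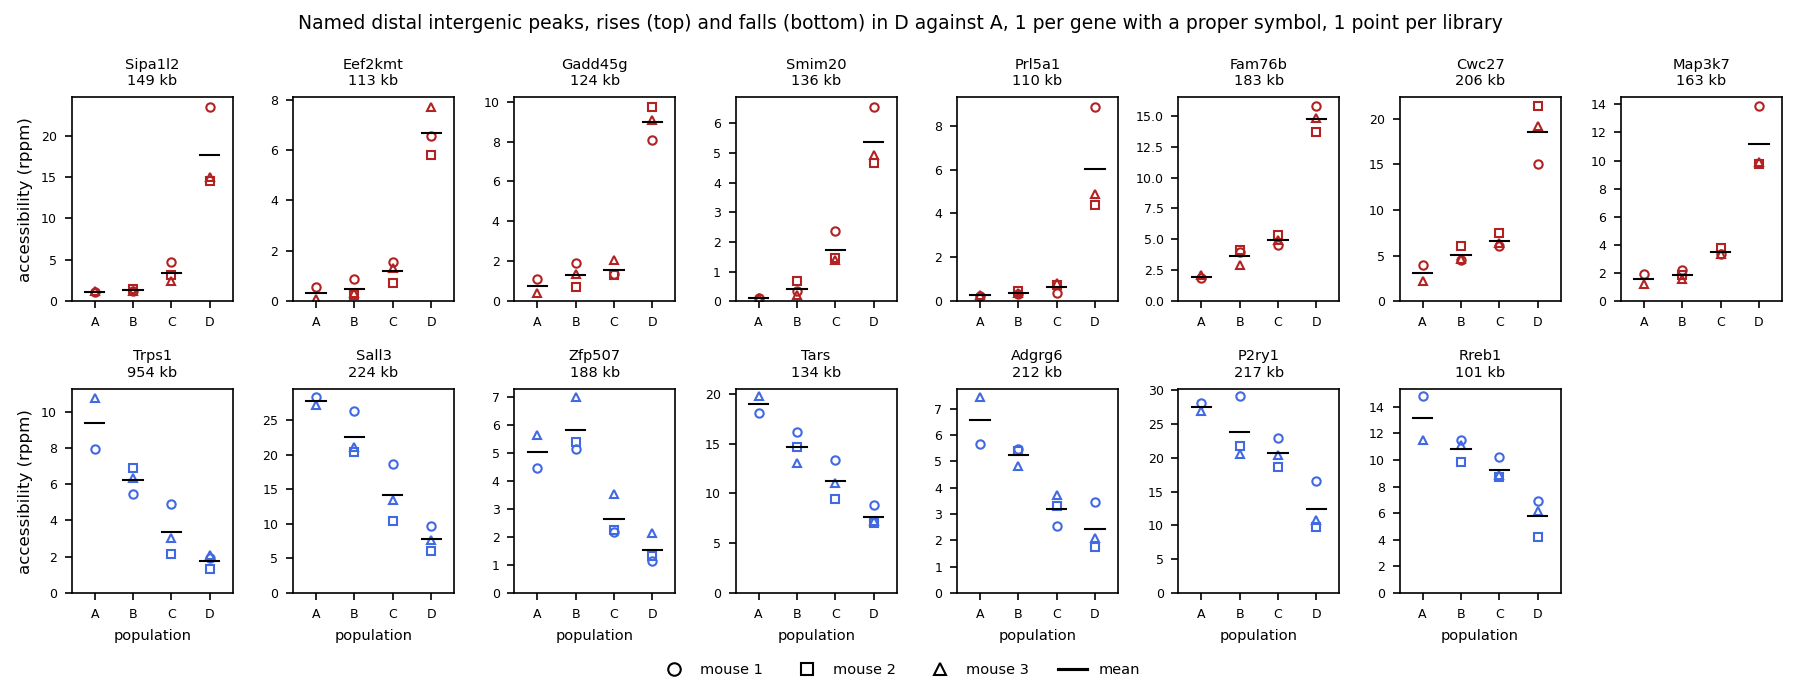
Accessibility (vertical axis, rppm, each panel from 0 and on its own scale) in populations A to D at the 8 largest rises (top row, red) and 7 of the 8 largest falls (bottom row, blue) in D against A that the naming rule took, 1 per gene with a proper symbol. Each point is 1 library, its shape gives the mouse and the line is the mean; A has no mouse 2, and the panel title gives the assigned gene and its distance.

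Of the 8 largest falls taken by the same rule, 7 are described, from -1.89 to -1.07 on the log2 scale, while 15 other called distal peaks also fell by more than the smallest of them. The largest was in a desert 954 kb from Trps1, a GATA-type repressor (chr15:49935238-49935864). It measured 7.94 and 10.8 rppm in A, 5.46, 6.87 and 6.34 in B, 4.91, 2.16 and 3.01 in C and 1.93, 1.31 and 2.12 in D (log2 change -1.89, SE 0.25, adjusted p = 0.000138 by limma). The ranges of the 4 populations did not overlap, in descending order from A to D. The peak between Sall3, a zinc finger factor, and Galr1 (chr18:81210623-81211431) was stronger, at 28.4 and 27.3 rppm in A, 26.4, 20.4 and 21.2 in B, 18.6, 10.5 and 13.5 in C and 9.63, 6.11 and 7.68 in D (log2 change -1.73, SE 0.21, adjusted p = 9.1e-05 by limma). There C overlapped neither B nor D.

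The peak between Zfp507 and Tshz3 (chr7:35990932-35991830) gave 4.46 and 5.64 rppm in A, 5.12, 5.38 and 6.98 in B, 2.16, 2.26 and 3.55 in C and 1.16, 1.31 and 2.14 in D (log2 change -1.27, SE 0.22, adjusted p = 0.00160 by limma). A and B overlapped and C was below both.

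The peak near Tars, a threonyl-tRNA synthetase (chr15:11532543-11533876), measured 18.1 and 19.8 rppm in A and 8.86, 6.98 and 7.19 in D (log2 change -1.21, SE 0.16, adjusted p = 0.0002 by limma). At the Adgrg6 peak, between that gene and the zinc finger gene Hivep2 (chr10:14332698-14333074), the values were 5.66 and 7.45 rppm in A and 3.46, 1.75 and 2.09 in D (log2 change -1.16, SE 0.22, adjusted p = 0.00253 by limma), and without A replicate 3 the call was lost (log2 -0.99, limma adjusted p = 0.0587). Between Mbnl1, a splicing regulator, and P2ry1 (chr3:60785076-60786026) they were 28.1 and 27.0 rppm in A and 16.6, 9.74 and 10.8 in D (log2 change -1.13, SE 0.20, adjusted p = 0.00155 by limma). Between Ly86 and Rreb1, a Ras-responsive factor (chr13:37724391-37725161), they were 14.8 and 11.5 rppm in A and 6.93, 4.22 and 6.16 in D (log2 change -1.07, SE 0.19, adjusted p = 0.00146 by limma). Of these 7 falls, 6 were no longer called without mouse 3, namely Trps1, Zfp507, Tars, Adgrg6, P2ry1 and Rreb1, at adjusted p from 0.0516 to 0.297.

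Distal peaks were grouped into runs, in which neighbours lie at most 100 kb apart. There were 502 runs, 242 of them with 1 peak, and 74 runs held at least 2 called peaks in D against A. Of these 74, 47 held only higher calls, 15 only lower calls and 12 both. Over all distal peaks 17.6% were called higher and 5.35% lower, against 8.7% and 3.74% of all peaks. The 5 runs with most peaks differed in how they moved. In the Tcra run 2 of 80 peaks rose and none fell by limma. The run between Vrk1 and Bcl11b, a factor that commits cells to the T lineage, spans 394 kb, and 4 of its 32 peaks rose while none fell. In the run between Map3k7 and Gja10, around Bach2, 3 of 32 rose and 3 fell. The Igh run had 1 lower of 28, and the run between Tle3, a corepressor, and Rplp1 had 6 higher and 2 lower of 22.

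The peak of the Bcl11b run with the smallest p lies at its far end, 331 kb from the assigned start (chr12:107404560-107405241), with 1.20 and 2.11 rppm in A, 4.79, 4.81 and 2.67 in B, 4.32, 2.98 and 3.66 in C and 10.8, 8.58 and 11.2 in D (log2 change 2.09, SE 0.24, adjusted p = 4.46e-05 by limma). B was above A there and C overlapped B. In the Tle3 run the peak with the smallest p (chr9:61753437-61754319) gave 9.79 and 7.55 rppm in A, 14.5, 12.1 and 11.4 in B, 14.7, 14.0 and 15.6 in C and 22.7, 22.0 and 21.1 in D (log2 change 1.25, SE 0.14, adjusted p = 4.54e-05 by limma). Rises and falls lay side by side in that run, where the log2 changes ran from -0.86 to 1.52.

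Other runs were picked after their values were seen, for the number or share of called peaks, and are a description. Between Id2, an inhibitor of E proteins, and Rnf144a, 12 of 13 peaks of a run of 370 kb were higher, with log2 changes from 0.24 to 2.93 over the 13, and 7 of 17 in a neighbouring run. All 7 peaks of the Cwc27 run, which spans 49.3 kb between Adamts6 and Cwc27, were higher, at 0.82 to 2.28. All 5 between Cmc1 and Eomes, a T-box factor of memory and cytotoxic cells, were higher in D against A and also in D against C, but 2 of the 5 were listed only through D. The first of them (chr9:118271565-118272172) measured 0.544 and 0.302 rppm in A, 0.223, 0.572 and 0.479 in B, 0.981, 0.823 and 0.851 in C and 6.16, 7.56 and 6.51 in D (log2 change 2.44, SE 0.17). It was under 1 rppm in all libraries of A, B and C and is one of those 2.

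All 4 peaks between Nsmaf and Tox, a factor of T cell development and exhaustion, were higher, from 1.12 to 1.69, and 4 of 7 between Bcl6 and Lpp, with 2.39 and 2.11 rppm in A and 13.5, 13.1 and 12.9 in D at the first of them by p (chr16:24186732-24187535, log2 change 2.12, SE 0.22, adjusted p = 1.88e-05 by limma). Runs near Rasa1, which inactivates Ras (6 of 13), Runx1 (5 of 12), Fam76b and Sesn3 (5 of 11), and Gata3 (4 of 19) also held higher calls and no lower ones by limma. The shares over all distal peaks were 17.6% higher and 5.35% lower, against 8.7% and 3.74% of all peaks. With so few lower calls, a run without any is no finding in itself.

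Falls gathered in fewer runs. Between Map3k1, a kinase upstream of JNK, and Ankrd55, 5 of 11 peaks fell, and those 5 are the first 5 in order along the chromosome. The peak of them with the smallest p (chr13:111994918-111995999) gave 7.61 and 8.76 rppm in A, 7.35, 6.07 and 6.98 in B, 4.51, 4.32 and 4.85 in C and 3.46, 3.49 and 3.31 in D (log2 change -1.05, SE 0.15, adjusted p = 0.000362 by limma). Between Tgfbr2, a receptor of TGF-beta, and Rbms3, 4 of 11 fell and none rose, among them a strong peak (chr9:116368795-116369684) with 75.7 and 68.2 rppm in A and 48.1, 48.1 and 44.7 in D (log2 change -0.60, SE 0.11, adjusted p = 0.00171 by limma). The calls of these 2 falling peaks were lost without mouse 3 (log2 changes -0.94 and -0.64). They were also lost after thinning to equal reads (adjusted p = 0.231 and 0.0536 by limma). Upstream of Myc, the growth regulator, 4 of 16 fell and 1 rose, and beyond Btg1, an antiproliferative gene of resting lymphocytes, 4 of 12 fell and 1 rose. The rising peaks of these 2 runs measured 5.22 and 4.73 rppm in A and 17.7, 12.7 and 16.1 in D near Myc (chr15:61546358-61547121, log2 change 1.45, SE 0.17, adjusted p = 5.85e-05 by limma) and 5.66 and 6.04 rppm in A and 12.3, 18.8 and 15.5 in D near Btg1 (chr10:96726911-96727795, log2 change 1.25, SE 0.19, adjusted p = 0.000452 by limma).

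**Figure D4:**
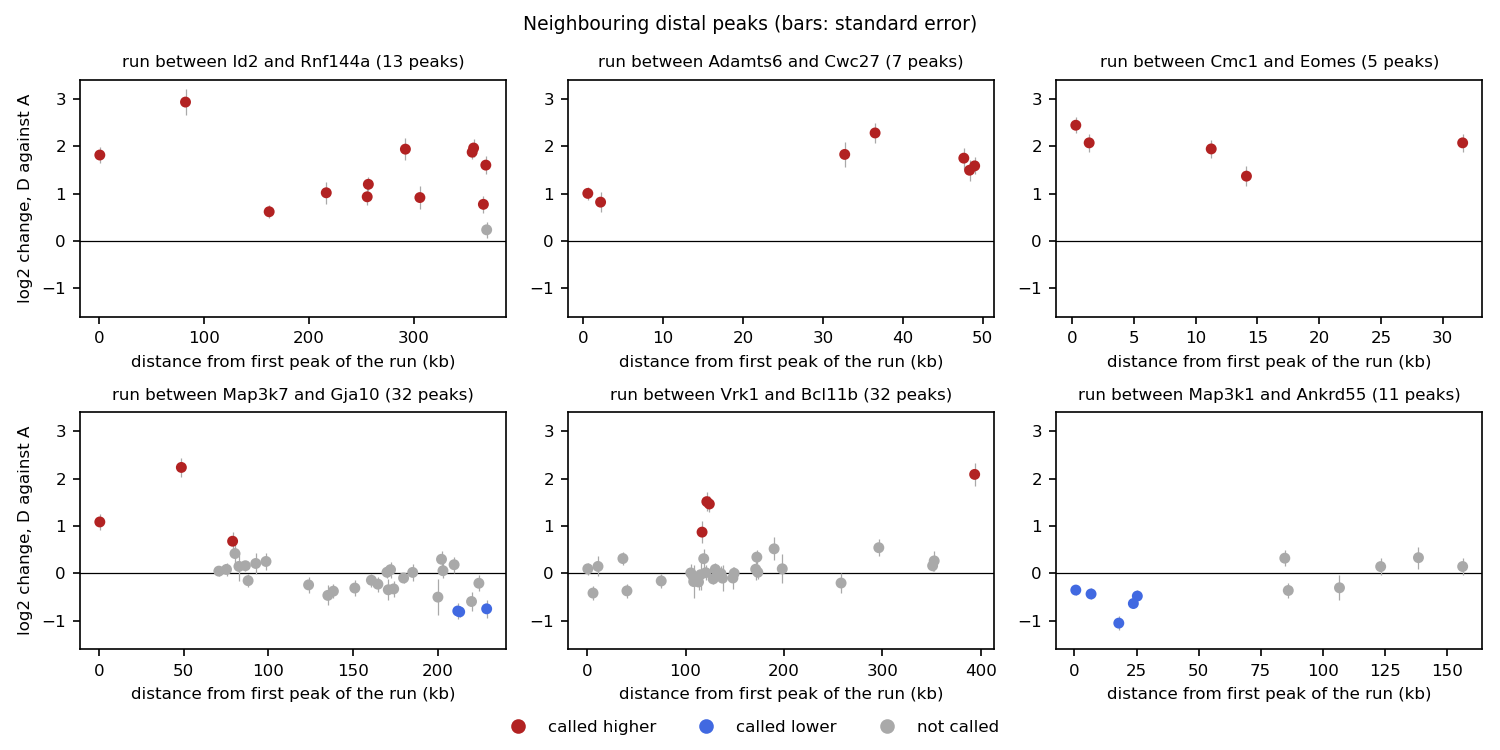
Log2 change in D against A (vertical axis, bars give the standard error) at the distal peaks of 6 runs against distance from the first peak of the run (horizontal axis, kb). Red points were called higher, blue lower and grey not called; the top 3 runs and the last were picked for their calls, and the Map3k7 and Bcl11b runs are among the 5 with most peaks.

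By assigned gene, the gene lists gave few distal peaks. Of 28 T lineage transcription factors, 9 had distal peaks, 47 in all, of which 13 rose and none fell by limma, with a median log2 change of 0.26. Of 23 genes of naive homing and quiescence, 7 had 54 peaks, of which 9 rose and 5 fell (median -0.05). Of 33 genes induced by T cell receptor signalling, Dusp6, Jun and Nr4a3 had 12 peaks, of which 1 rose and none fell (median 0.01). Regulatory and follicular helper genes had 11 peaks at Icos, Maf and Sh2d1a, of which 2 rose and none fell (median 0.06). The median over all 45508 peaks was -0.04. In the order given, the called shares of these 4 lists were 27.7%, 25.9%, 8.33% and 18.2%, against 22.9% of the distal peaks and 12.4% of all peaks. With the mouse as a block, against 21.2% of all peaks, the calls were 16 higher and 1 lower for T lineage factors, 11 and 10 for naive homing and quiescence, 4 and 0 for receptor-induced genes and 2 and 0 for regulatory and follicular helper genes. Negative regulators of activation, the Ly6 cluster, myeloid and dendritic genes, and CD8 T and NK genes had no distal peak. Peaks of 1 gene share its desert and are not independent.

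Runx1, a factor of T cell development, had 2 distal peaks with the smallest p of its list. The first (chr16:93016873-93017708) measured 6.96 and 6.04 rppm in A, 8.69, 9.16 and 8.74 in B, 14.5, 13.4 and 12.7 in C and 25.4, 21.5 and 24.3 in D (log2 change 1.72, SE 0.13, adjusted p = 2.24e-06 by limma), with C between B and D. The second (chr16:92997602-92997958) measured 0.761 and 1.01 rppm in A, 1.34, 0.572 and 0.878 in B, 0.785, 0.617 and 1.16 in C and 4.24, 3.64 and 4.18 in D (log2 change 1.41, SE 0.20, adjusted p = 0.00026 by limma), with A, B and C overlapping and D apart. The difference in pattern between these neighbouring peaks was not tested.

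At Cxcr4, a chemokine receptor that guides lymphocytes, 6 of 9 peaks of the run rose. One of the 6 was listed only through D. A strong peak (chr1:128766375-128767696) gave 26.1 and 25.7 rppm in A, 32.4, 29.4 and 26.6 in B, 30.4, 32.7 and 31.4 in C and 66.6, 54.7 and 56.6 in D (log2 change 1.16, SE 0.12, adjusted p = 1.81e-05 by limma), and a weak peak beyond it (chr1:128808406-128809093) gave 0.761 and 0.302 rppm in A, 0.223, 0.458 and 0.559 in B, 0.392, 0.926 and 0.823 in C and 4.62, 5.53 and 5.34 in D (log2 change 2.02, SE 0.20). At the strong peak A, B and C lay between 25.7 and 32.7 rppm, and D was apart. At the weak peak all 8 libraries of A, B and C were under 1 rppm, which makes it the one listed only through D. At Maf, a factor of follicular helper and regulatory cells, the peak 309 kb away (chr8:115397728-115398616) gave 6.31 and 4.53 rppm in A, 13.5, 8.70 and 8.62 in B, 18.2, 11.9 and 13.8 in C and 29.6, 20.8 and 24.9 in D (log2 change 2.02, SE 0.22, adjusted p = 3.73e-05 by limma), and its neighbour (chr8:115399974-115400685) gave 13.7 and 10.7 rppm in A and 25.4, 22.5 and 24.7 in D (log2 change 0.94, SE 0.16, adjusted p = 0.00104 by limma). At the first, B and C overlapped each other, A was below both and D above both. The call at the neighbour was lost without mouse 3 (log2 change 0.76). All 154 peaks of that list summed to 1997 and 2112 rppm in A. Their sums lay from 2056 to 2134 for B, from 2128 to 2224 for C and from 2362 to 2497 for D. Of the 154, 38 were called higher and 4 lower in D against A by limma, against 8.7% and 3.74% of all peaks. The only peak of Foxp3, the gene the gate excluded, stood at 3.74 rppm on average in A and 5.00 in D. Among the 19 genes of that list with peaks, mean sums fell from A to D only at Il2ra (194.1 to 165.3 rppm) and Sh2d1a (111.6 to 104.2). They rose at all the others, among them Ikzf2 (60.7 to 114.8 rppm) and Ctla4 (177.4 to 267.5). The part of regulatory and follicular helper cells in the Maf values was not tested.

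For Jun, an AP-1 subunit induced by receptor signals, the peak 108 kb away (chr4:95160020-95160358) gave 1.41 and 2.42 rppm in A and 4.62, 4.80 and 5.24 in D (log2 change 1.03, SE 0.19, adjusted p = 0.00213 by limma), and without A replicate 1 it was not called (log2 0.78, limma adjusted p = 0.0589). A stronger Jun peak (chr4:95214852-95216483) was not called at 14.5 and 10.1 rppm in A and 16.9, 16.0 and 19.2 in D (log2 change 0.49, SE 0.18, adjusted p = 0.0958 by limma), and with the mouse as a block it was (adjusted p = 0.0448). The only distal peaks assigned to Itgb1, Cr2 and Thy1 were not called, with log2 changes of 0.19, 0.33 and -0.08.

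The neighbouring steps divide the path from A to D. From A to B, where the reporter rises within Ly6C+ cells, limma called 0 of the 1606 distal peaks (0.0% of all peaks in either direction), and edgeR and DESeq2 called 0. At an unadjusted p below 0.05 there were 88 (5.48%, against 2.68% of all peaks). Both shares are near or below what a threshold of 0.05 gives where nothing changed. With the mouse as a block 1 distal peak was higher and 1 lower, against 0.0593% of all peaks in either direction.

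From B to C, where the reporter is held at intermediate and Ly6C changes, limma called 1 distal peak higher and 0 lower, and it was the only call among all 45508 peaks (0.0022% higher, 0.0% lower). It lies in the Id2 desert, 472 kb from Gm17746 (chr12:25600650-25601483), and was named after its values were seen. It measured 0.435 and 0.101 rppm in A, 0.668, 1.03 and 0.918 in B, 4.51, 4.42 and 3.92 in C and 8.47, 6.40 and 8.14 in D (log2 change 1.5, SE 0.17, adjusted p = 0.0199 by limma). All libraries of A and B were near or under 1 rppm and all of C near 4 rppm. The call was lost without any one of 7 libraries, those of B and C and D replicate 3. With the mouse as a block 8 distal peaks were higher and 4 lower (0.193% of all peaks in either direction), and edgeR and DESeq2 on recovered reads called 10 and 11.

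From C to D, where the reporter rises within Ly6C- cells, 136 distal peaks were higher and 37 lower by limma (8.47% and 2.30%), against 4.51% and 1.49% of all peaks. The higher count includes peaks listed only through D, among them the Prl5a1 peak, the weak Cxcr4 peak and the Gm17399 peak between Cmc1 and Eomes. Being listed fixed their rise over C, so those calls are no result. The median log2 change was 0.93 among the higher and -0.67 among the lower. With the mouse as a block there were 206 and 120, together 326, against 11.4% of all peaks. By the naming rule the 3 largest rises were at the Sipa1l2 peak (log2 change 2.07, SE 0.21, adjusted p = 5.61e-05 by limma), the Prl5a1 peak listed only through D (log2 change 2.05, SE 0.21) and the Gadd45g peak (log2 change 1.95, SE 0.22, adjusted p = 0.000107 by limma), whose values are given above, and 2 other called distal peaks rose by more than the last of these. Among the falls, a Trib2 peak (chr12:16116370-16117161), between Trib2 and Lpin1, gave 7.50 and 5.94 rppm in A, 8.35, 7.10 and 6.34 in B, 7.65, 7.71 and 6.36 in C and 3.08, 3.78 and 4.01 in D and was lower in D than in C (log2 change -0.83, SE 0.16, adjusted p = 0.00562 by limma). The Trib2 call was lost without mouse 3 (log2 change -0.98) and after thinning to equal reads (adjusted p = 0.0977 by limma). The Sall3 peak fell less (log2 change -0.77, SE 0.19, adjusted p = 0.0294 by limma), and its call was lost in both of these fits too. The Sall3 call was also lost without C replicate 1, C replicate 3, D replicate 2 or D replicate 3, at adjusted p from 0.0732 to 0.115. Without mouse 3 the count fell from 173 to 27, after thinning to 66, and with only C and D in the model to 97. Of the 37 lower calls, the count was 19 without C replicate 1, 20 without C replicate 3, 23 without D replicate 2 and 65 without D replicate 1. It was 1 without mouse 3, and 10 both after thinning and with only C and D in the model.

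The steps from A to B and from C to D were compared by the difference of the log2 changes. They differ in both reporter range and Ly6C class, so those properties cannot be told apart in it. The difference was called at 20 distal peaks, all with the larger change from C to D, and at none in the other direction, against 0.609% and 0.022% of all peaks. Of the 20, 6 were listed only through D, which fixed a rise from C to D and limited any change from A to B, so their calls are no result. With the mouse as a block 43 were called with the larger change from C to D and 22 the other way, against 2.16% of all peaks. No distal peak was called without mouse 3, after thinning or when means under 5 rppm were filtered out, and edgeR on recovered reads called 1. The 20 became 5 without A replicate 1, 6 without A replicate 3, and 10 to 13 without B replicate 2, B replicate 3, C replicate 2 or D replicate 3. Depth differed among libraries by more than 10-fold and D replicate 1 was the shallowest, which touches weak peaks most.

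The 5 strongest distal peaks were not called in D against A. They include narrow peaks that varied between libraries of 1 population. The Pex2 peak (chr3:5860302-5860530) gave 120.3 and 173 rppm in A, 71.0, 168 and 125 in B, 98.9, 192 and 116 in C and 113, 211 and 137 in D (log2 change 0.04, SE 0.35), and in B, C and D the library of mouse 2 was the highest. The 1700019M22Rik peak (chr12:97061357-97061836, 1.01e+03 kb away) stood at 25.4 rppm in B replicate 1 and at 97.9 to 169 in the other 10 libraries. The Rab10os peak (chr12:3109784-3109920), of 136 bases, gave 137 and 142 rppm in A, 102, 144 and 81.4 in B, 159.7, 158 and 73.3 in C and 178, 185 and 68.5 in D (log2 change -0.08, SE 0.40), with mouse 3 lowest in B, C and D. By contrast the 6820431F20Rik peak (chr8:20121855-20123130) stayed between 115.7 and 145.4 rppm (log2 change -0.16, SE 0.11), and the 4930459C07Rik peak (chr10:96370653-96371860) between 101.5 and 168 (log2 change 0.00, SE 0.19).

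The farthest peak from its assigned start, 1.47e+03 kb from Gm20268 (chr1:102628100-102628400), was not called and reached at most 29.3 rppm in the 11 libraries. The next 2 were both assigned to 4930590L20Rik. At 1.24e+03 kb (chr1:141897951-141898522) the values were 1.52 and 1.71 rppm in A and 8.47, 4.65 and 3.47 in D (log2 change 1.25, SE 0.31, adjusted p = 0.0167 by limma), and the call was lost without A replicate 1 or A replicate 3 (adjusted p = 0.129 and 0.0963). At 1.23e+03 kb (chr1:141884330-141884887) they were 4.46 and 3.32 rppm in A and 6.55, 2.04 and 2.77 in D (log2 change -0.14, SE 0.34). Just above the limit of 100 kb, peaks of Hfm1, Rxfp2 and Supt20 had log2 changes of 0.13, -0.21 and 0.03. Just below it, peaks of Sox5os3, Gm30790 and 1700060C16Rik had 0.47, 0.22 and 0.00.

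Promoter peaks of the genes assigned to called distal peaks were examined in the same comparison. The 282 distal peaks called higher in D against A were assigned to 155 genes, and 63 of these had 67 promoter peaks, of which 6 rose (8.96%) and none fell by limma. The rising promoters were those of Cd83, Gm30214, Gm3636, Lef1, Marcks and Zfp608. The 86 called lower were assigned to 53 genes with 20 promoter peaks at 18 of them, of which 1 fell (5.00%), that of Tent5a, and none rose. The 1238 distal peaks not called were assigned to 455 genes, and 150 of these had 162 promoter peaks. Of the 162, 8 rose (4.94%) and 1 fell (0.617%). Cd83, Gm30214, Lef1, Zfp608 and Tent5a also have distal peaks that were not called, so their promoters count in both groups. Over all 7270 promoter peaks 195 rose (2.68%) and 66 fell (0.908%), and the differences between these shares were not tested. The assigned gene is only the nearest start, and genes without a listed promoter peak give no value here.

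Of 13 CD4 T cell markers 12 had listed peaks, and their 117 peaks summed to 2115 and 2166 rppm in A and 2030 to 2162 in D. Myeloid and dendritic genes (39 peaks, none at Lyz2 or Csf1r) summed to 394.2 and 414.5 in A and 345.4 to 428.4 in D, and CD8 T and NK genes (35 peaks, none at Ncr1) to 632.6 and 676.5 in A and 568.1 to 690.7 in D. The reads that the scaling was set to ran from 2597176 to 36859228 per library, so 10 rppm rested on 26 to 369 reads. In each population the library of mouse 3 was the deepest. These totals measure counting precision only, and reads without molecular identifiers can be copies of 1 fragment.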

How the data were processed

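ATAC-seq values of 11 libraries were read from the table the authors deposited on the mm10 build. The values are RPM, called rppm per the file headers, and their denominator is undocumented. Bowtie and MACS2 are named, with no version, in the submitters' processing notes, and read filters, duplicate removal and the pooling behind the peaks were not given in the sources used here. Values were whole multiples of 1 step in every library (100% within 6e-04 rppm), so whole reads were recovered for edgeR, DESeq2 and thinning. Listed peaks held 92.5% to 94.7% of the recovered denominators.

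Log2(rppm + 1) values were tested by limma 3.58.1 under R 4.3.3 with a variance trend, 1 mean per population and all libraries in 1 model. It was fitted on all 45508 peaks, two-sided, with Benjamini-Hochberg adjustment over all peaks within a contrast and a threshold of 0.05. Fold changes on this scale understate changes of weak peaks. The mouse number pairs libraries of the same animal. Deviations from population means correlated at 0.18 to 0.56 over 15 pairs from 1 mouse, and at -0.43 to 0.20 over 30 pairs from different mice, a description in which all pairs share libraries. Deviations within a population cancel out by construction, so the lower values between mice follow in part from the higher ones within a mouse. Alternatives were pseudocounts of 0.25 and 5, a filter on means under 5 rppm, other scalings, the mouse as a block, fits without each library or mouse 3, only the populations compared, edgeR 4.0.16, DESeq2 1.42.0 and thinned reads. The tests were checked on simulated data.

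The peaks, gene lists and tests were chosen with earlier results of these data known. Named peaks were the 8 higher and 8 lower that changed most between D and A and 3 each in the neighbouring steps, among called peaks whose higher population averaged 5 rppm or more, with no overlap between libraries and a gene with a proper symbol, 1 per gene. Added were the 5 strongest, the 3 farthest, the 3 on each side of the limit of 100 kb, up to 2 per gene list and 1 per run of the 5 with most peaks. Other peaks, among them those of other runs, of start windows and of the call in C against B, were named after their values were seen. Genes and start windows came from RefSeq (GRCm38.p6), in which all 1606 peaks' gene identifiers were found. Peak positions are as the table gives them. Peak sequences were not analysed here, and results for a few genes are not reported here.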

Additional observations from a re-analysis of the deposited data

Results flagged for a closer look

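The steps from C to D and from A to B differ in both reporter range and Ly6C class, which their comparison cannot tell apart. At 7 named distal peaks the log2 change from C to D differed from that from A to B by the limma test of the difference itself. At 3 of them, listed only through D because every library of A, B and C was under 1 rppm, that filter fixed a rise from C to D. It also limited any change from A to B, so the call is no result. Their differences were 2.04 at the Gm17399 peak between Cmc1 and Eomes, 1.97 at the weak Cxcr4 peak (chr1:128808406-128809093) and 1.92 at the Prl5a1 peak. Of the other 4, the Sipa1l2 peak had a difference of 1.96 (adjusted p = 0.0106 by limma). At the Trib2 peak (chr12:15932089-15932430) it was 1.69 (0.0343), at the Eef2kmt peak 1.66 (0.0337) and at the second Runx1 peak (chr16:92997602-92997958) 1.43 (0.0274). In each the change from C to D was the larger and that from A to B lay between -0.11 and 0.16. The Gm17399 and Trib2 peaks were named after their values were seen. Of the 7, only the Sipa1l2 peak had a mean over 5 rppm across all libraries (6.33), so the filter on means kept it for testing. No distal peak was called in this test without mouse 3, after thinning to equal reads or with means under 5 rppm filtered out, and all 7 peaks stood under 5 rppm in every library of A, B and C. Without A replicate 1 or A replicate 3 the count of distal peaks called was 5 or 6, from 20.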

How the results depend on the processing

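Median-of-ratios scaling kept the count of distal peaks called within 1.5 times in all 5 comparisons, with medians over all peaks moving by under 0.1. In D against A the count of 368 was 183 when means under 5 rppm were filtered out, 88 without mouse 3, 214 after thinning and 205 to 396 without single libraries. In D against C the count of 173 became 70, 27 and 66 under the first 3 of these, 97 with only C and D in the model, and 117 to 197 without single libraries. In B against A it was 0 in every fit but the block. In C against B the single call became 0 with a pseudocount of 5, a minimum mean of 5 rppm, quantile normalization, without mouse 3 and after thinning, 10 with edgeR, 11 with DESeq2, and 0 to 5 without single libraries. For the difference of the steps, 20 became 6 with a pseudocount of 0.25, 40 with 5, 32 with quantile normalization, 1 with edgeR, 6 with DESeq2, 0 with the minimum mean, without mouse 3 and after thinning, and 5 to 23 without single libraries. Some of these fits leave fewer peaks or libraries, and the cause of the changes in count was not tested.

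With the mouse as a replicate block, the pairing gave 2 calls in B against A, 12 in C against B, 326 in D against C and 65 for the difference of the steps. In D against A it gave 382 higher and 142 lower. Among 63 values of named peaks the block changed 1 call, at the second Jun peak, and turned the sign of the uncalled Pex2 peak (log2 -0.23).

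Of the 63 values, 52 were called, 4 of them at peaks listed only through D, and 24 of these calls were lost without mouse 3 and 9 after thinning. The calls lost without mouse 3 were at rises as well as falls. Among the rises were the Gm31814 peak (log2 change 0.93 in that fit) and the first Jun peak (1.24). The Btg1 (1.285), second Runx1 (1.48) and second Maf (0.76) peaks were others. Signs turned only at 8 uncalled peaks. Without single libraries, log2 changes ran from -0.22 to 0.30 at Pex2, -0.33 to 0.38 at Rab10os, -0.22 to 0.14 at 4930459C07Rik, -0.25 to 0.00076 at Gm20268, -0.52 to 0.13 at 4930590L20Rik (chr1:141884330-141884887), -0.0028 to 0.47 at Itgb1, -0.019 to 0.61 at Cr2 and -0.25 to 0.19 at Thy1. Quantile normalization gave -0.0018 at Pex2 and -0.0067 at 4930459C07Rik, which had -0.026 without mouse 3 and -0.086 after thinning. Rab10os had 0.41 without mouse 3, 0.037 with edgeR and 0.070 with DESeq2, and Thy1 0.11 and 0.074 with the last 2. The planned search for motifs over peak sequences was not run.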
